A study of Mus musculus with 6 samples.

Results

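The infiltrating monocyte marker genes described here are 9 genes, Chil3, Cd14, Ccr2, Ly6c2, Itgam, Plac8, F10, Clec4e and Clec4d, followed through mouse livers after an overdose of acetaminophen. They were chosen by name, as the entries of the deposited gene table whose symbol equals 1 of these 9 names, and each name matched 1 of the 55385 genes in that table. Polyadenylated RNA was sequenced from 6 livers, 2 per group. The groups were Optn-/- mice given acetaminophen (replicates 4 and 5), wild-type mice given acetaminophen (replicates 1 and 4) and wild-type mice given saline (replicates 3 and 6). All mice were C57BL/6 and 6 weeks old. Acetaminophen (paracetamol), which injures hepatocytes when given in excess, was injected into the abdomen at 500 mg/kg, and the saline mice received 200 µL of phosphate-buffered saline by the same route. Livers were taken 6 h later. Optn encodes optineurin, a receptor that links ubiquitin-tagged cargo such as damaged mitochondria to autophagy. How the Optn allele was made is not given in the sources used here, and no Optn-/- mice without acetaminophen were analysed here. A treated knockout against saline wild type therefore differs by both genotype and drug.

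Classical monocytes leave the bone marrow through the chemokine receptor CCR2, travel in the blood with high surface Ly6C, and enter injured tissue, where they can mature into macrophages. In the liver they are distinct from Kupffer cells, the resident macrophages that carry CLEC4F, and acetaminophen injury is a standard setting in which neutrophils come in first and monocytes after them. Several of the 9 genes are shared with those cells: neutrophils also carry Itgam, Clec4d, Clec4e and Cd14, and Kupffer cells carry Cd14. F10 encodes coagulation factor X, whose main source is the hepatocyte, although some macrophages also make it.

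Before the levels, the start-site sequences of 4 of the genes are shown: Ly6c2, Clec4e and Clec4d, which hold the letters that 5 of the genes share, and Chil3, which moved with them and lacks those letters. Of the 9 genes, 8 matched the promoter table taken from RefSeq (GRCm38.p6), which gives 250 bases before and 50 bases after each start site, and Cd14 was not among them. Each window was searched on both strands for GAGGAA, the core letters bound by the myeloid factor PU.1, for TGANTCA (AP-1), TTGCNNAA (C/EBP) and, for the TATA box, the letters TATAAA. Capitals mark the matches, in which TTCCTC is GAGGAA read on the other strand.
Ly6c2 (chr15:75111922-75112221, minus strand): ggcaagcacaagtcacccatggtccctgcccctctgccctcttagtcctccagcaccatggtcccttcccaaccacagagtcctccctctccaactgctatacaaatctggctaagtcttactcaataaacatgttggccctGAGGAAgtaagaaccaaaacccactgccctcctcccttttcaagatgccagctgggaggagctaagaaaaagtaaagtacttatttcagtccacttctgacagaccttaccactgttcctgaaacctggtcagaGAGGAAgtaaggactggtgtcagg
Clec4e (chr6:123289822-123290121, minus strand): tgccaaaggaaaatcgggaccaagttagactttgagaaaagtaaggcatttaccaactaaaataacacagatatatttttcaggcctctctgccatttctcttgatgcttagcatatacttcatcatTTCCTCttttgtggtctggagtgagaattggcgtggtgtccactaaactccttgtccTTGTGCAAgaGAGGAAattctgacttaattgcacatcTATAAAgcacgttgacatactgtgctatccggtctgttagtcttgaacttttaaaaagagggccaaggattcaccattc
Clec4d (chr6:123261857-123262156, plus strand): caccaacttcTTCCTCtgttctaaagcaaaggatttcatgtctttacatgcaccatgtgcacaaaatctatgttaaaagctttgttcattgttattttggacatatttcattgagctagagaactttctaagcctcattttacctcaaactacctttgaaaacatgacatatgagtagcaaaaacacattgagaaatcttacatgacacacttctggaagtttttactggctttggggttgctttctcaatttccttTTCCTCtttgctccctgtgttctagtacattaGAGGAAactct
Chil3 (chr3:106167515-106167814, minus strand): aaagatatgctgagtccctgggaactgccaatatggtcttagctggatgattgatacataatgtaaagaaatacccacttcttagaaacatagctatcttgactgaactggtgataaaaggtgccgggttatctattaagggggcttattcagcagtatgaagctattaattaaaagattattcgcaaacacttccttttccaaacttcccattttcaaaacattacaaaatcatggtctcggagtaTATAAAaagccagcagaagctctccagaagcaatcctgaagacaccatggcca
Counted in the first window of each gene, GAGGAA was found in Ly6c2, Itgam, Plac8, Clec4e and Clec4d, which is 5 of 8 genes, and 28.3% of all 32851 RefSeq windows of this length hold it. It occurred 3 times each in Itgam and Clec4d and 2 times each in the other 3 genes. The windows of Chil3, Ccr2 and F10 held none. Ly6c2 and Plac8 have a second window, which is left out of these counts, and that of Plac8 holds a C/EBP match. The AP-1 letters were found in 0 of 8 genes (7.81% of all windows), the C/EBP letters in Clec4e (10.8%) and TATAAA in Chil3 and Clec4e (13.6%). A match is a description of the letters only, and no site was tested for binding here.

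**Figure D1:**
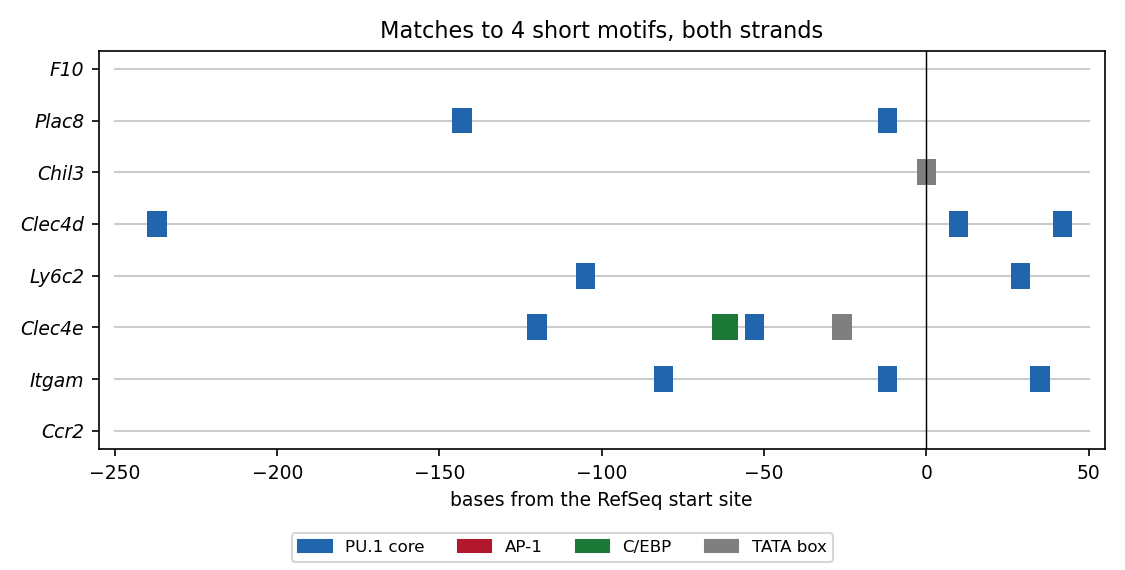
Positions of 4 short motifs, on both strands, in the first RefSeq window of 8 of the genes; the horizontal axis is distance in bases from the start site, each row is a gene, and each block is a match. The PU.1 core lies in 5 rows, F10 and Ccr2 have no match, and no row holds the AP-1 letters.

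Depth and the makeup of the libraries bear on what follows. Total counts were 77.3 and 62.5 M in treated Optn-/- livers, 66.0 and 71.1 M in treated wild-type livers and 59.1 and 75.9 M in saline livers, where M is 1000000 counts. Optn, which checks the genotype labels, had 0.316 and 0.457 FPKM in treated Optn-/- livers, against 9.17 and 9.19 FPKM in treated wild-type livers and 20.95 and 18.73 FPKM in saline livers. It was lower in treated Optn-/- than in treated wild-type livers by a log2 difference of -4.59 ± 0.21 (edgeR adjusted p = 0.00423, and 0.0573 when the library sets described next enter the model). The livers carried hepatocyte genes as their label says, with albumin at 6.69% to 9.94% of counts. RNA of other tissues divided the libraries into 2 sets. Skeletal muscle genes were present in both treated wild-type livers and in saline replicate 3 (59.5 to 91.1 CPM, counts per M, summed over 12 genes), and were at most 1.01 CPM in the other 3. Intestinal genes were present in both treated Optn-/- livers and in saline replicate 6 (29.8 to 50.2 CPM over 10 genes, chosen after Fabp2 and Tff3 were seen to be liver-expressed), and were at most 0.225 CPM elsewhere. Treated wild-type replicate 4 also held neuronal RNA (138 CPM, against 6.64 to 14.8 CPM in the other 5). Each treated genotype thus lies in 1 set, and genotype and set cannot be told apart in their direct comparison.

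Of the 9 genes, 8 had their lowest FPKM in saline livers, intermediate values in treated wild-type livers and their highest in treated Optn-/- livers, with no overlap between any of the groups. That order with no overlap was met by 4.08% of the 27227 genes with at least 1 count. F10 was the exception, with 176 to 207 FPKM over all 6 livers. With acetaminophen in wild type, 4 of the 6 genes that could be tested rose and 0 fell (also 0 at an unadjusted p under 0.05), where 8.36% of all 11677 tested genes rose and 5.92% fell. Between the genotypes after acetaminophen, 0 of 6 passed edgeR's quasi-likelihood test with Benjamini-Hochberg adjustment. In bulk tissue, more cells of a type cannot be told apart from more RNA per cell.

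The test covered genes with a mean of at least 0.5 FPKM over the 6 livers, which 6 of the 9 genes reached. Chil3, Ly6c2 and Clec4d reached it only through the treated livers, so a difference was built into their selection and the count over the 6 is a description only. Ccr2, Itgam and Clec4e did not reach it, and their values come from the same edgeR model fitted to all 27227 genes with at least 1 count. Fold changes are on the log2 scale with their standard error (SE), and the call threshold was an adjusted p of 0.05. Levels are FPKM (fragments per kilobase and per M), which can be compared between genes.

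**Figure D2:**
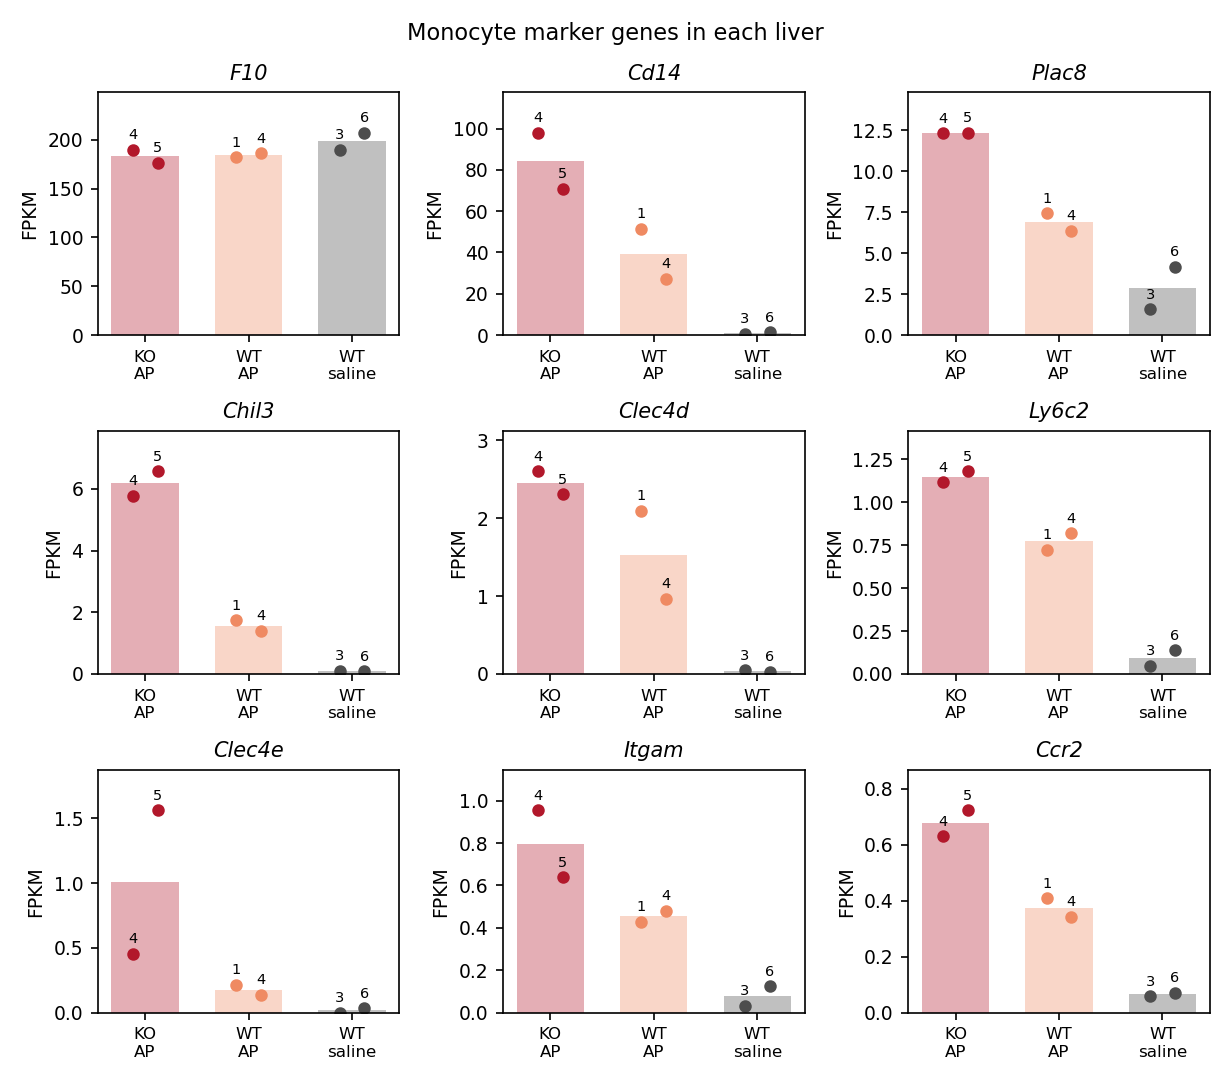
FPKM of each gene in each liver; points are single livers labelled with their replicate number, bars are group means of 2 livers, and groups run from treated Optn-/- on the left through treated wild type to saline wild type. Each vertical axis starts at 0 and has its own scale, and 8 panels step down from left to right while F10 stays between 176 and 207 FPKM.

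Ccr2 and Ly6c2 are the genes by which classical monocytes are most often recognised. Ccr2 (ENSMUSG00000049103, chromosome 9, 124101950 to 124113557, plus strand, GRCm38 as for all genes here), the receptor for CCL2, had 0.630 and 0.724 FPKM in treated Optn-/- livers, 0.409 and 0.343 FPKM in treated wild-type livers and 0.0602 and 0.0715 FPKM in saline livers. These rest on 359 and 335 counts in treated Optn-/- livers, 199 and 182 in treated wild-type livers and 27 and 42 in saline livers. The transcript was scarce throughout, and the 3 groups did not overlap. Ccr2 rose with acetaminophen in wild type by 2.63 ± 0.40 on the log2 scale (edgeR adjusted p = 0.00396). Ccr2 in treated Optn-/- livers exceeded that in treated wild-type livers by 0.80 ± 0.38 on the log2 scale, which did not pass (edgeR adjusted p = 0.702).

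Ly6c2 (ENSMUSG00000022584, chromosome 15, 75108158 to 75111970, minus strand), which encodes the surface protein that defines Ly6C-high monocytes, had 1.12 and 1.18 FPKM in treated Optn-/- livers, 0.724 and 0.820 FPKM in treated wild-type livers and 0.0468 and 0.140 FPKM in saline livers. Again no group overlapped another, although the saline livers differed from each other 2.98-fold. Ly6c2 rose with acetaminophen in wild type by 3.17 ± 0.53 (edgeR adjusted p = 0.0174, and 0.0524 without treated wild-type replicate 1), and the genotypes differed by 0.54 ± 0.48 after treatment (edgeR adjusted p = 0.787). Its transcript is 97.6% identical to that of its neighbour Ly6c1 over 822 aligned bases, so the share of reads between them is uncertain. Ly6c1, which is prominent in endothelial cells, had 0.494 and 0.563 FPKM in treated Optn-/- livers, 0.0808 and 1.01 FPKM in treated wild-type livers and 0.0573 and 0.215 FPKM in saline livers, and its groups overlapped. Treated wild-type replicate 1 was thus low in Ly6c1 while it was not in Ly6c2.

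Itgam and Plac8 are carried by monocytes and by other myeloid cells. Itgam (ENSMUSG00000030786, chromosome 7, 128062640 to 128118491, plus strand) encodes integrin alpha-M, CD11b, which pairs with the beta-2 chain and binds ICAM1 and fibrinogen. It had 0.955 and 0.640 FPKM in treated Optn-/- livers, 0.429 and 0.481 FPKM in treated wild-type livers and 0.0330 and 0.126 FPKM in saline livers. The groups were separate, with a 3.804-fold gap between the saline livers. Itgam rose with acetaminophen in wild type by 2.65 ± 0.60 (edgeR adjusted p = 0.026), and the genotype difference after treatment was 0.78 ± 0.56 (edgeR adjusted p = 0.858). A second gene model on the same strand, Gm49368, overlaps Itgam and had 241 and 227 counts in treated Optn-/- livers, 66 and 68 in treated wild-type livers and 8 and 72 in saline livers. How reads were divided between the models is not given in the sources used here, so the Itgam counts are uncertain.

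Plac8 (ENSMUSG00000029322, chromosome 5, 100553725 to 100572245, minus strand), a small cysteine-rich protein abundant in monocytes and other leukocytes, had 12.3 and 12.4 FPKM in treated Optn-/- livers, 7.44 and 6.37 FPKM in treated wild-type livers and 1.59 and 4.17 FPKM in saline livers. It had the highest saline level of the 8 genes other than F10. Its difference with acetaminophen in wild type was 1.47 ± 0.42, which did not pass (edgeR adjusted p = 0.0716). The same difference passed with all genes fitted (edgeR adjusted p = 0.0404) and in DESeq2 (adjusted p = 0.00576). It was 2.30 without saline replicate 6 (edgeR adjusted p = 0.0171) and 0.95 without saline replicate 3 (edgeR adjusted p = 0.091). After treatment the genotypes differed by 0.80 ± 0.41 (edgeR adjusted p = 0.640), and treated Optn-/- livers exceeded saline livers by 2.28 ± 0.43 (edgeR adjusted p = 0.0186, but 0.072 without treated Optn-/- replicate 4 and 0.086 without replicate 5).

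Cd14, Clec4d and Clec4e are pattern receptors. Cd14 (ENSMUSG00000051439, chromosome 18, 36725067 to 36726798, minus strand) encodes the co-receptor that hands bacterial lipopolysaccharide to TLR4. It had 98.1 and 70.8 FPKM in treated Optn-/- livers, 51.4 and 27.3 FPKM in treated wild-type livers and 0.721 and 1.40 FPKM in saline livers. Every treated liver lay far above both saline livers, and the treated wild-type livers differed from each other 1.88-fold. Cd14 rose by 5.42 ± 0.51 in wild type (edgeR adjusted p = 0.00398), or 37.1-fold in mean FPKM. The genotype difference after treatment was 1.07 ± 0.42 and did not pass (edgeR adjusted p = 0.555), and it was 0.66 without treated wild-type replicate 4 and 1.63 without replicate 1.

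Clec4d (ENSMUSG00000030144, chromosome 6, 123262111 to 123275265, plus strand) and Clec4e (ENSMUSG00000030142, chromosome 6, 123281789 to 123289870, minus strand) are neighbours that encode MCL and Mincle, C-type lectins known in mice to form a complex and to signal through the Fc receptor gamma chain. Clec4d had 2.60 and 2.31 FPKM in treated Optn-/- livers, 2.10 and 0.965 FPKM in treated wild-type livers and 0.0446 and 0.0284 FPKM in saline livers, the last from 5 and 4 counts. The treated genotypes were separate by a narrow margin. Clec4d rose by 5.50 ± 0.61 in wild type (edgeR adjusted p = 0.00608), with a genotype difference after treatment of 0.64 ± 0.47 (edgeR adjusted p = 0.742). That genotype difference was 0.17 without treated wild-type replicate 4 and 1.34 without replicate 1.

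Clec4e, the receptor that in mice also senses SAP130 released by dying cells, had 0.455 and 1.56 FPKM in treated Optn-/- livers and 0.216 and 0.139 FPKM in treated wild-type livers. In saline livers it had 0 counts in replicate 3 and 15 counts, 0.0363 FPKM, in replicate 6. A count of 0 allows up to 3 counts, which is 0.0507 CPM in that library, and covers counting error only. Treated Optn-/- replicate 4 had 0.291 of the Clec4e level of replicate 5, the widest gap inside a treated group among the 9 genes. Its difference with acetaminophen in wild type was 3.40 ± 1.03 and did not pass (edgeR adjusted p = 0.0829), nor did the genotype difference of 2.43 ± 0.93 (edgeR adjusted p = 0.531). With every gene fitted, the wild-type difference passed in DESeq2 (adjusted p = 0.0103) and in edgeR with the library set in the model (adjusted p = 0.0400). Treated Optn-/- livers exceeded saline livers by 5.83 ± 1.12 (edgeR adjusted p = 0.00899, but 0.0512 once the set enters the model).

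Chil3 (ENSMUSG00000040809, chromosome 3, 106147554 to 106167564, minus strand) encodes Ym1, a secreted chitinase-like lectin made by mouse monocytes, neutrophils and alternatively activated macrophages. It had 5.78 and 6.57 FPKM in treated Optn-/- livers, 1.73 and 1.40 FPKM in treated wild-type livers and 0.107 and 0.0814 FPKM in saline livers. The replicates of each group lay close together and the groups were wide apart. Chil3 rose by 4.23 ± 0.32 in wild type (edgeR adjusted p = 0.00243). It had the largest genotype difference among the 6 tested genes, 1.94 ± 0.27, or 3.94-fold in mean FPKM, with an edgeR adjusted p of 0.181. DESeq2 called this difference (adjusted p = 2.8e-08), as did limma on log2(FPKM + 0.5) (adjusted p = 0.031) but not limma on log2(FPKM + 0.1) (adjusted p = 0.063), so the call depends on the test. The Chil3 transcript is 94.7% identical to that of Chil4 over 1535 aligned bases, but Chil4 had 0 counts in all 6 livers.

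F10 (ENSMUSG00000031444, chromosome 8, 13037308 to 13056676, plus strand) had 190.0 and 176 FPKM in treated Optn-/- livers, 182 and 186 FPKM in treated wild-type livers and 190.0 and 207 FPKM in saline livers. It was the most abundant of the 9 in every liver. The fitted differences were 0.10 ± 0.12 with acetaminophen in wild type (edgeR adjusted p = 0.624), -0.04 ± 0.12 between treated genotypes (edgeR adjusted p = 0.952) and 0.07 ± 0.12 between treated Optn-/- and saline livers (edgeR adjusted p = 0.741). Its FPKM was lower in both treated wild-type livers than in either saline liver, while the fitted difference has the other sign after trimmed-mean scaling. The data go against the name of monocyte marker for F10 in whole liver: it was at 190.0 FPKM or more in saline livers, where the other 8 were between 0 counts and 4.17 FPKM. Partners of factor X made by the hepatocyte were also read. F7, which activates factor X, had 52.8 and 44.3 FPKM in treated Optn-/- livers, 55.6 and 51.9 FPKM in treated wild-type livers and 50.7 and 64.7 FPKM in saline livers. F9, which does so too, had 45.5 and 46.5 FPKM in treated Optn-/- livers, 46.9 and 43.8 FPKM in treated wild-type livers and 57.3 and 53.7 FPKM in saline livers. F7 overlapped between all groups, and F9 was lower in the treated livers than in either saline liver, by a fitted -0.08 ± 0.12 in wild type (edgeR adjusted p = 0.701). Of 12 tested genes of a coagulation list, edgeR called 0 in treated against saline wild-type livers (2 at an unadjusted p under 0.05), DESeq2 1 and limma 0.

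**Figure D3:**
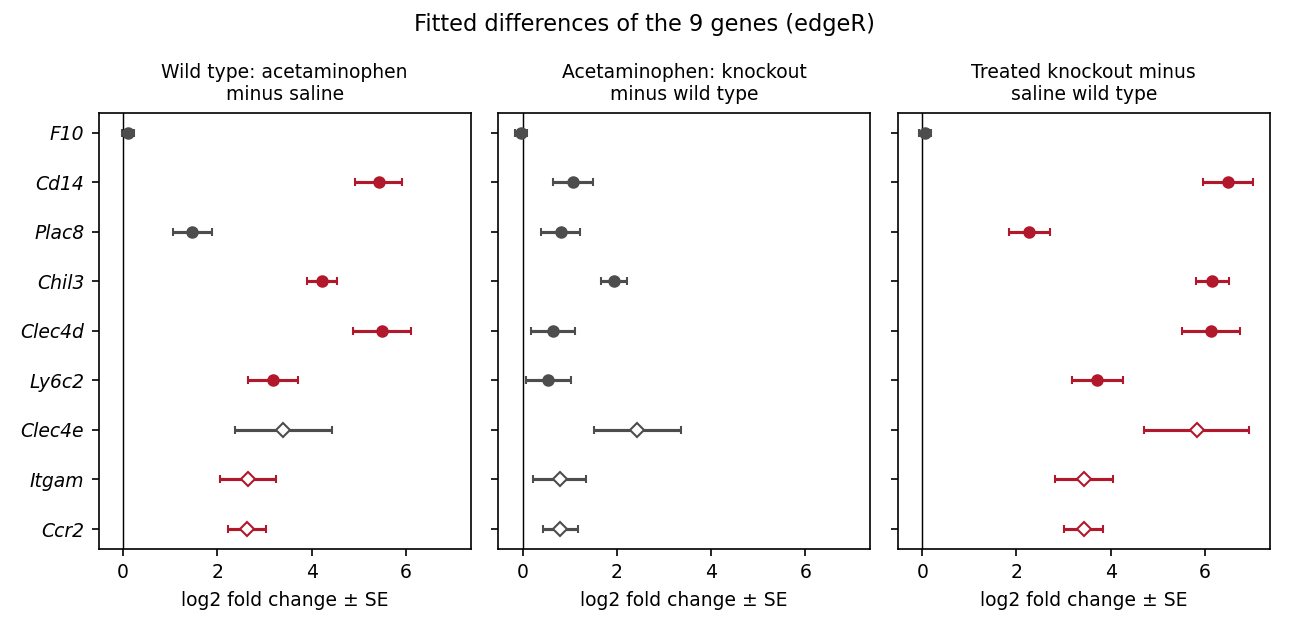
Log2 fold change with its standard error (horizontal bars) of the 9 genes in 3 comparisons; filled circles are the fit to the 11677 tested genes, open diamonds are Ccr2, Itgam and Clec4e from the fit to 27227 genes, and red marks an edgeR adjusted p under 0.05. In the left panel the calls lie at 2.63 and above, in the middle panel there are no calls, and F10 lies within 0.10 of 0 in each.

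Set against all genes, the acetaminophen differences of these genes were large. With all genes fitted, the median difference in wild type (log2) was 3.13 over the 9 genes, 3.26 without F10 and 0.06 over all 27227. In that fit 7 of 9 rose, where 4.33% of all genes did. Both the treated wild-type and the treated Optn-/- comparison use the same 2 saline livers. Treated Optn-/- livers exceeded saline livers in 5 of 6 tested genes (12.2% of all tested genes rose) and in 8 of 9 with all genes fitted (5.55% rose), F10 being the remaining gene. They lay above saline livers with no overlap in 8 of 9 genes, as did 20.4% of genes with a count. The median of that difference was 3.67 over the 9 genes and 4.75 without F10. Treated wild-type livers lay above saline livers with no overlap in 8 of 9 genes, and 18.2% of the 27227 genes with a count did so. With 2 livers against 2, the smallest two-sided p of an exact permutation test is 0.333, and none was used for single genes.

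The genotype comparison after acetaminophen gave the same direction in each of the 8 genes without support from the adjusted test. The log2 differences ran from 0.54 in Ly6c2 to 2.43 in Clec4e, with a median of 0.80 over the 8 genes, 0.80 with F10 and -0.0074 over all 27227 genes in the same fit. Treated Optn-/- livers lay above treated wild-type livers with no overlap in 8 of 9 genes, and 17.4% of genes with a count did so. edgeR called 0 of 6 tested genes, where 0.0514% of all tested genes were called higher and 0.0514% lower, and 0 of 9 with all genes fitted, where 0.0881% were called higher. At an unadjusted edgeR p under 0.05 it was 2 of 6, Chil3 and Cd14, where 4.92% of all tested genes were higher, and with all genes fitted it was 4 of 9, where 3.02% were. DESeq2 and limma on log2(FPKM + 0.5) called 1 gene each, Chil3, and limma on log2(FPKM + 0.1) called 0. The share of all genes called was not taken for DESeq2 or limma.

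Because each treated genotype lies in 1 library set, the treated livers were also set against the saline liver of their own set, which leaves 1 saline liver each and no test. Mean FPKM in treated Optn-/- livers over saline replicate 6 was 75.8-fold for Chil3, 60.2-fold for Cd14, 9.46-fold for Ccr2 and 86.4-fold for Clec4d. Mean FPKM in treated wild-type livers over saline replicate 3 was 14.7-fold for Chil3, 54.7-fold for Cd14, 6.25-fold for Ccr2 and 34.3-fold for Clec4d, so the ratio was higher in Optn-/- for these 4 genes. The order turned for Ly6c2 (8.23-fold in Optn-/- livers, 16.5-fold in wild-type livers), for Itgam (6.35-fold in Optn-/- livers, 13.8-fold in wild-type livers) and for Plac8 (2.96-fold in Optn-/- livers, 4.36-fold in wild-type livers). These are 3 genes in which saline replicate 6 lay well above saline replicate 3. Clec4e was 27.8-fold in Optn-/- livers and has no ratio in wild-type livers, whose saline liver had 0 counts. In an edgeR model with the set as a term, added after seeing the data, the 5 tested genes other than F10 all rose with acetaminophen in wild type (edgeR adjusted p 0.0168 to 0.0349), where 4.9% of all tested genes rose. In the genotype comparison the same model gave 2.44 for Chil3, 1.33 for Clec4d, 0.13 for Cd14, -0.54 for Plac8 and -0.93 for Ly6c2, with no call. All 4 treated livers lay above the saline liver of their own set in each of the 8 genes other than F10, while the direction between genotypes turned with the set for Ly6c2, Itgam and Plac8.

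Within a group the 9 genes kept a wide spread of abundance. In treated Optn-/- livers the mean FPKM ran in the order F10, Cd14, Plac8, Chil3, Clec4d, Ly6c2, Clec4e, Itgam and Ccr2. Clec4e overlapped both of its neighbours Ly6c2 and Itgam there, and Itgam overlapped Ccr2, so these neighbours do not differ beyond their spread. In treated wild-type livers the order was the same as far as Ly6c2 and ended with Itgam, Ccr2 and Clec4e, and only Chil3 and Clec4d overlapped. In saline livers Plac8 stood above Cd14, and Chil3, Ly6c2, Itgam and Ccr2 followed at 0.140 FPKM or lower, each overlapping its neighbour. Clec4d and Clec4e came last and overlapped each other.

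Ligands and partners of these receptors, taken from lists, were measured in the same livers. Genes of these and the later lists passed the same filter over all 6 livers, some only through the treated livers. Ccl3 and Il1r2, with 0 counts in both saline livers, are examples. A difference was thus built into the selection of such genes, and the list counts and medians are descriptions only. Monocyte-attracting ligands were higher after treatment in part: 2 of 7 tested rose in wild type (median 4.62 on the log2 scale, against 0.03 over all tested genes) and 5 of 7 exceeded saline in treated Optn-/- livers. Ccl2, the main CCR2 ligand, had 6.37 and 9.17 FPKM in treated Optn-/- livers, 4.14 and 1.30 FPKM in treated wild-type livers and 0.232 FPKM in saline replicate 6, with 0 counts in saline replicate 3. Its difference with acetaminophen in wild type was 4.62 ± 1.2 (edgeR adjusted p = 0.0555, but 0.0347 with the library set in the model). Ccl5 was called in wild type (4.50 ± 0.44, edgeR adjusted p = 0.0043), and so was Ccl4 (6.22 ± 1.53, edgeR adjusted p = 0.0486). Ccl4 had 20.7 FPKM in treated wild-type replicate 1 and 1.15 FPKM in replicate 4, so that value leans on 1 liver, and with the library set in the model it was no longer called (edgeR adjusted p = 0.181).

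Of the receptors and transcription factors of the monocyte lineage, 3 of 8 tested rose in wild type (median 1.11). They were Ccr1, a receptor shared with neutrophils (6.97 ± 0.94, edgeR adjusted p = 0.0102), Irf8, a lineage factor (1.14 ± 0.22, edgeR adjusted p = 0.0246, but 0.0776 with the library set), and Nr4a1, an immediate-early factor that patrolling monocytes need (7.00 ± 0.39, edgeR adjusted p = 0.00144). Spi1, which encodes PU.1, had 5.55 and 4.57 FPKM in treated Optn-/- livers, 2.36 and 3.22 FPKM in treated wild-type livers and 0.823 and 1.87 FPKM in saline livers. Its difference in wild type was 1.26 ± 0.40 (edgeR adjusted p = 0.0901, but 0.0377 with the library set). With the library set 4 of the 8 tested genes rose. Csf1r, the receptor for the macrophage growth factor, differed by 0.30 ± 0.52 in wild type (edgeR adjusted p = 0.737), and its saline replicate 6, at 8.79 FPKM, lay above both treated wild-type livers, at 6.72 and 5.55 FPKM.

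Among partners of CD14 in lipopolysaccharide sensing, 3 of 9 tested rose in wild type (median 0.19): Tlr2, Myd88 and Traf6. With the library set in the model it was 1 of 9, since these 3 lost the call (edgeR adjusted p = 0.0930, 0.0756 and 0.0806) and Lbp gained it (0.0365). Tlr4 itself was too low to test, at 0.151 and 0.273 FPKM in treated Optn-/- livers, 0.0567 and 0.00878 FPKM in treated wild-type livers and 0.0210 and 0.196 FPKM in saline livers. Lbp, the plasma protein that loads CD14, differed by 0.93 ± 0.24 (edgeR adjusted p = 0.0576). Of the integrin partners of Itgam 2 of 7 tested rose (median 0.59). These were Itgb2, the beta-2 chain (1.47 ± 0.28, edgeR adjusted p = 0.0238), and its ligand Icam1 (1.71 ± 0.42, edgeR adjusted p = 0.0477, but 0.111 with the library set). Of the C-type lectin group 4 of 6 tested rose (median 1.53): Fcer1g, the gamma chain that carries the Clec4d and Clec4e signal (1.93 ± 0.40, edgeR adjusted p = 0.0302), Syk and Bcl10 downstream of it (Bcl10 at an edgeR adjusted p of 0.0737 with the library set), and the related receptor Clec4n (2.61 ± 0.47, edgeR adjusted p = 0.0213). Between the treated genotypes edgeR called 0 genes of each of these lists, as did DESeq2 and limma, and at most 1 gene per list had an unadjusted p under 0.05.

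Of other monocyte genes, 6 of 15 tested rose in wild type (median 1.58; 5 of 15 with the library set), where 8.36% of all tested genes rose, and 8 of 15 above saline in treated Optn-/- livers (median 2.58). Those that rose in wild type included F13a1, the clotting factor XIII subunit made by monocytes (5.06 ± 0.56, edgeR adjusted p = 0.00611), Thbs1, thrombospondin 1 (3.72 ± 0.37, edgeR adjusted p = 0.00455), and S100a4 (2.88 ± 0.42, edgeR adjusted p = 0.0128, but 0.0529 with the library set). Between the treated genotypes edgeR called 0 of 15 (3 at an unadjusted p under 0.05), DESeq2 1 and limma 0. Of the 20 genes outside the 9 that were examined singly and called in wild type, 8 kept an adjusted p under 0.05 in every fit that left out 1 library. Ccl5, Ccr1, Nr4a1, F13a1, Thbs1 and S100a8 were among these 8, and the other 12 lost the call in at least 1 such fit. Cx3cr1, the mark of patrolling monocytes, had 0.234 FPKM in treated wild-type replicate 4, the liver that also held neuronal RNA. It was at 0.0402 FPKM or lower in every other liver.

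Genes of some other blood and liver cells moved as well, and their part in these results was not tested. Of 5 tested B cell markers edgeR called 0 in wild type (median 0.66), DESeq2 1 and limma 0. The B cell list summed to 25.3 and 25.7 CPM in treated wild-type livers and to 25.4 and 26.1 CPM in saline livers. In treated Optn-/- livers it was 30.8 and 33.2 CPM. Only 1 dendritic cell marker could be tested, and edgeR did not call it in wild type. Against saline, treated Optn-/- livers had 1 edgeR call in each of these 2 lists. Of the neutrophil markers 9 of 12 rose in wild type, and their sum was 170 and 220 CPM in treated Optn-/- livers, 160 and 79.2 CPM in treated wild-type livers and 2.86 and 7.80 CPM in saline livers, where 6 and 4 of the 12 had 0 counts. S100a8, a neutrophil and monocyte alarmin gene, rose by 4.84 ± 0.53 in wild type (edgeR adjusted p = 0.00608). Over the 8 monocyte genes other than F10 the sum was 237 and 191 CPM in treated Optn-/- livers, 125 and 75.0 CPM in treated wild-type livers and 5.26 and 12.01 CPM in saline livers. Without Cd14, which made most of that sum in treated livers, it was 51.9 and 58.0 CPM in treated Optn-/- livers, 28.3 and 23.6 CPM in treated wild-type livers and 3.89 and 9.35 CPM in saline livers.

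Of the 11 T and NK cell markers 4 could be tested. In wild type 3 of 4 rose (median 2.51), namely Gzma, Gzmb and Ccl5, the last also counted above as a ligand. With the library set it was 1 of 4. Nkg7, also tested, did not rise (0.04 ± 0.45, edgeR adjusted p = 0.967). The T cell genes Cd3e, Cd3d, Cd3g, Cd8a and Cd4 were too low to test, and each overlapped between the treated and the saline livers. The NK cell genes Klrb1c and Ncr1, too low to test as well, were higher in every treated liver than in either saline liver. Over all 11 T and NK cell markers the sum was 27.3 and 25.9 CPM in treated Optn-/- livers. It was 25.4 and 14.8 CPM in treated wild-type livers and 4.58 and 5.76 CPM in saline livers.

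Red cell genes, a measure of blood held in the tissue, summed to 8460 and 8927 CPM in treated Optn-/- livers, 9384 and 3962 CPM in treated wild-type livers and 700.1 and 1110 CPM in saline livers, and 5 of 5 tested rose in wild type. Kupffer cell markers summed to 829 and 587 CPM in treated Optn-/- livers, 523 and 445 CPM in treated wild-type livers and 207 and 503 CPM in saline livers. Only Marco and Id3 of the 12 Kupffer markers rose in wild type. Clec4f and Adgre1, which are in this list, differed by 0.20 ± 0.45 and -0.07 ± 0.56 in wild type (edgeR adjusted p = 0.802 and 0.951). Both were higher in saline replicate 6 than in replicate 3. Between the treated genotypes edgeR called 0 of the 12 neutrophil, 12 Kupffer and 5 red cell markers tested, as did DESeq2 and limma, with 1 Kupffer marker at an unadjusted p under 0.05.

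**Figure D4:**
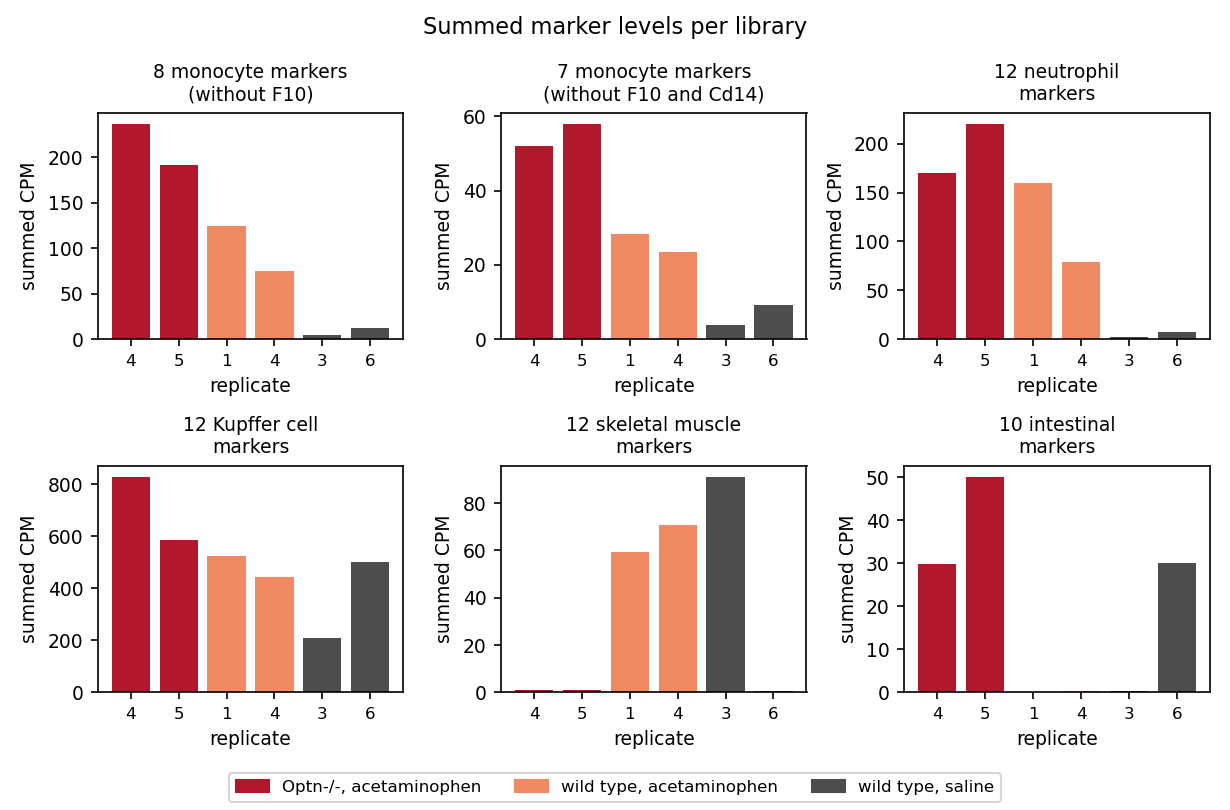
Summed CPM of 6 marker lists in each liver, one bar per liver labelled by replicate, coloured by group with treated Optn-/- on the left and saline on the right. The 8 monocyte genes sum to between 75.0 and 237 CPM in treated livers and to 12.01 CPM or less in saline livers, the neutrophil markers to between 79.2 and 220 CPM and to 7.80 CPM or less, and muscle and intestinal genes mark the 2 library sets.

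The 8 genes other than F10 resembled one another across the 6 livers to unequal degrees. On log2(FPKM + 0.5), the correlation of each with the mean of the others was 0.946 or higher in 7 of them and 0.786 in Clec4e, and it was -0.672 for F10. Among 9868 other tested protein-coding genes, those most like the mean of the 8 were Fgr, a kinase of myeloid cells (r = 0.999), Gpat3 (0.998), Mrtfa, Yrdc and Pdlim7 (0.997 each) and Akap12 (0.996). Fgr had 3.26 and 3.66 FPKM in treated Optn-/- livers, 2.07 and 1.82 FPKM in treated wild-type livers and 0.418 and 0.684 FPKM in saline livers. The genes most like F10 were Stt3a, Itgb5 and Slc37a3 (0.990 each), Edem2 and Sys1 (0.987 each) and Fkbp11 (0.986), of which Stt3a and Edem2 serve protein glycosylation and folding in the endoplasmic reticulum. These correlations are descriptions over 6 livers that share 3 groups, and carry no p.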

How the data were processed

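RNA-seq of 6 mouse livers was taken as deposited. The authors' table gives a whole-number count and an FPKM value per gene and library, per the file headers; every count of 0 is listed at an FPKM of 0.0001. The submitters' processing notes name Bowtie 0.12.2 and mm8, but the deposited coordinates equal GENCODE M21 (GRCm38) for 94.2% of 55144 shared genes and for all 9 genes described, so GRCm38 is used. Which program counted reads is not given in the sources used here, nor whether it used strand. The labels' protocol speaks of adipose RNA although the tissue label is liver, which was not resolved.

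Counts were tested with edgeR 4.0.16 (quasi-likelihood, trimmed-mean scaling, R 4.3.3) in 1 model of 3 groups over 6 libraries, with Benjamini-Hochberg adjustment over the 11677 genes with a mean of at least 0.5 FPKM. The common coefficient of biological variation was 0.277, with 3 residual and 2.93 prior degrees of freedom. Steps were tested on simulated data. Alternatives were DESeq2 1.42.0, limma 3.58.1 on log2(FPKM + 0.5) or log2(FPKM + 0.1), total-count or RLE scaling, only the groups compared, a 1 FPKM filter, every gene with at least 1 count, the library set as a term, and leaving out each library. Total counts were 59.1 to 77.3 M (1000000), and 3 counts, the floor for a count of 0, were 0.0388 to 0.0507 CPM (counting error only). Replicate livers differed beyond sampling noise (mean chi-square per gene 114 to 291), so none was merged. Nothing in the labels says how the mice were raised or grouped, so p-values measure the spread between these livers. Promoter windows come from RefSeq (GRCm38.p6).

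The 9 genes, the gene lists and the tests were chosen with earlier results of these data known. Named genes were all 9 genes, a fixed set of partner genes, up to 3 genes with the smallest p of each list with acetaminophen in wild type, and the 6 genes most like the monocyte genes and F10. The PU.1, AP-1, C/EBP and TATA motifs were fixed as letters and not fitted.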

Additional observations from a re-analysis of the deposited data

How the results depend on the processing

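Shares of all genes called higher are given above for the main test and the fit to every gene. With the library set, the share is given for acetaminophen in wild type only. No such share was taken for the other alternatives, so their counts cannot be read against all genes. With acetaminophen in wild type, 4 of the 9 genes were called by the main test. It was 7 with every gene with at least 1 count, 8 with DESeq2 on every gene, 8 with every gene and the library set as a term (both added after seeing the data), and 3 to 5 when a library was left out; the larger counts include genes that the filter removes. Without treated wild-type replicate 1, 3 genes were called and Ly6c2 lost its call (edgeR adjusted p = 0.052). Between treated genotypes 0 were called; DESeq2, limma on log2(FPKM + 0.5) and DESeq2 on every gene each called 1, and 0 were called whenever a library was left out. Between treated Optn-/- and saline livers 5 were called, 8 with every gene with at least 1 count, 8 with DESeq2 on every gene, 6 with every gene and the library set, where Itgam (edgeR adjusted p = 0.0561) and Clec4e (0.0512) lost their calls, and 3 to 5 when a library was left out. The 3 came without treated Optn-/- replicate 5, where Ly6c2 (edgeR adjusted p = 0.053) and Plac8 (0.086) lost their calls, and Plac8 also lost it without replicate 4 (0.072).

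Among the 9 genes, and among other genes named in wild type, the following directions turned. F10 was -0.12 with acetaminophen in wild type under total-count scaling and -0.11 with limma at either pseudocount. F7 was -0.11 under total-count scaling, -0.092 with limma at either pseudocount, and -0.042 to 0.28 over the fits that leave out a library, negative without saline replicate 3. Between treated genotypes the library set as a term gave -0.93 for Ly6c2 and -0.54 for Plac8, and with every gene as well it gave -0.91 for Ly6c2, -1.07 for Itgam, -0.52 for Plac8 and -4.22 for Clec4e, which rests on 0 counts in saline replicate 3 and is no estimate of size. F10 was 0.039 there without treated Optn-/- replicate 5. Between treated Optn-/- and saline livers F10 was -0.12 under total-count scaling and with limma at either pseudocount, -0.014 without treated Optn-/- replicate 4 (0.12 without replicate 5) and -0.026 with every gene and the set. The cause was not tested. For the gene lists, the count of calls moved by over 1.5 times in 68 pairs of a list and an alternative and not in 255 with acetaminophen in wild type, in 15 and not in 308 between treated genotypes, and in 86 and not in 237 between treated Optn-/- and saline livers. No paired analysis was possible because the groups share only replicate number 4. Precision is limited by 2 livers per group and by low counts in saline livers. These counts were 0 to 15 for Clec4d, Clec4e and Chil3, 9 and 33 for Ly6c2, and 11 and 53 for Itgam.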
